A study of Mus musculus with 31 samples.

Results

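The antagonists and readouts of the Wnt pathway, 10 genes in all, were followed through 4 mouse expression experiments, as the 25 probe sets annotated to them among 45037 on the array (18193 genes with a symbol of their own). They are the secreted antagonists *Dkk2*, *Dkk3*, *Sfrp1*, *Sfrp2* and *Wif1*, the ligand *Wnt5a*, and the signal's nuclear and scaffold components *Ctnnb1*, *Lef1*, *Tcf7l2* and *Axin2*. No member shared a probe set with another gene. The set was chosen by pathway role around *Dkk2*, which was itself selected on its lower level in *Crebbp*+/- fibroblasts, so its values in that contrast are given as a description with no test.

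*Crebbp* and *Ep300* encode the paralogous coactivators CBP and p300, and *Cdkn1a* encodes the cell cycle inhibitor p21. Fetal liver hematopoietic stem cells (FL HSCs) were sorted at 14.5 dpc as lineage-negative Sca-1+ AA4.1+ c-Kit++ cells, and each sample pooled 15 embryos, so that embryos within a pool cannot be compared. The first experiment set 2 *Crebbp*+/- against 2 WT samples and the second 2 *Ep300*+/- against 2 WT samples, all C57BL/6 littermates with 2 technical arrays per sample. The third set 4 *Cdkn1a*-/- against 3 WT samples labelled as B6/129Sv, 1 array each. These *Cdkn1a*-/- mice and their WT controls were bought as separate lines, so strain differences and genotype cannot be told apart. The fourth set mouse embryonic fibroblasts (MEFs) of 4 *Crebbp*+/- against 4 WT C57BL/6 embryos of 14.5 dpc, 1 embryo of each genotype from each of 4 litters. MEFs were grown from disaggregated embryo bodies and can hold several mesenchymal cell types. All alleles were germline, so every cell of a mutant embryo carried them.

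Canonical Wnt ligands bind Frizzled receptors and LRP co-receptors, which stops a scaffold of Axin, APC and glycogen synthase kinase from sending beta-catenin, the product of *Ctnnb1*, to degradation. Beta-catenin then enters the nucleus, binds TCF/LEF factors at target genes and recruits CBP or p300 there. The Dickkopf protein DKK2 acts at the co-receptor, whereas secreted Frizzled-related proteins and WIF1 bind the ligands themselves.

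On GRCm38.p6, *Dkk2* lies at chr3:132085266-132180304, *Sfrp1* at chr8:23411383-23449632, *Lef1* at chr3:131110297-131224357 and *Ctnnb1* at chr9:120933400-120960507. The 250 bases before an annotated start of *Dkk2* and of *Ctnnb1* are printed because *Dkk2* is the gene around which the set was built and *Ctnnb1* encodes the effector that all canonical Wnt signals pass through. Both sequences are RefSeq GRCm38.p6 on the plus strand, 5′ to 3′, and capitals mark the letters of the motifs searched. *Ctnnb1* had 2 windows, and the one printed is the one with matches. Its start lies inside the gene, past the first base at chr9:120933400. The other, chr9:120933150-120933399, ends just before that base, and its window held none of the motifs.
Dkk2, chr3:132085042-132085291: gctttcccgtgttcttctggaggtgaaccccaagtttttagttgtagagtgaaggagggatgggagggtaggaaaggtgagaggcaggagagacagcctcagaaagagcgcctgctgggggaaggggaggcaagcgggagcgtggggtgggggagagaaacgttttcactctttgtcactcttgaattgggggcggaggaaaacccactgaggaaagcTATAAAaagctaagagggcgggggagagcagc
Ctnnb1, chr9:120933328-120933577: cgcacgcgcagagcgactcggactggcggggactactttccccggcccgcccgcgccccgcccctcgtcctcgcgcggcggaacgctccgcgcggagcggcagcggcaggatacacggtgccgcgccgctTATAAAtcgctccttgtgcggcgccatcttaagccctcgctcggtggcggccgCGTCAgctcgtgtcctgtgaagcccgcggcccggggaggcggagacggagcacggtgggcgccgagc
The motifs, searched on both strands of windows that ran 50 bases past the start, were the TCF/LEF core as CTTTGAT or CTTTGAA, the cAMP response element core TGACG, and TATAAA; no match overlapped another in the sequences printed. Windows were found for 7 of the 10 genes (12 windows); none was found for *Dkk3*, *Sfrp1* or *Wnt5a*. CTTTGAT or CTTTGAA stood in 0 of the 12 windows, against 8.65% of 32851 windows of the same length. TGACG stood in windows of *Ctnnb1* and *Tcf7l2*, on the minus strand, where the printed strand reads CGTCA, against 20.8% of all windows. With -1 as the last base printed, TATAAA began at -32 in *Dkk2* and at -120 in *Ctnnb1*, the latter inside the gene. It was also in windows of *Lef1*, *Wif1* and *Tcf7l2*, against 13.6% of all windows. These matches describe letters and were not tested as binding sites.

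Levels are log2 GCRMA values, normalized by the authors in each experiment separately, so they were compared only within an experiment and only within a probe set. The study's minimum, an intensity of 100 (6.64 on the log2 scale), was taken as the level below which a probe set was not read as measured. Between 11199 and 11512 probe sets reached it on an array of the *Crebbp* FL HSC experiment, and 12042 to 12363 in the *Ep300* experiment. The ranges were 18947 to 19522 in the *Cdkn1a* experiment and 14380 to 14684 in MEFs. The 2 arrays of a sample correlated at r between 0.9886 and 0.9942. Where groups are said not to overlap, this is a description, because the share of all probe sets without overlap was not counted. *Crebbp* averaged 9.45 in *Crebbp*+/- MEFs and 10.24 in WT MEFs, without overlap, whereas it did not separate the genotypes in FL HSCs (11.95 and 11.66 in *Crebbp*+/-, 12.07 and 11.41 in WT). *Ep300* measured 9.46 and 9.47 in *Ep300*+/- FL HSCs, against 9.53 and 9.60 in WT. *Cdkn1a* measured 6.56, 6.34, 8.07 and 5.30 in *Cdkn1a*-/- FL HSCs, against 7.66, 8.17 and 8.86 in WT, so sample 3 of the null group lay inside the WT range. Whether these probe sets lie outside the inactivated part of each gene was not checked. The 11 annotated stem and progenitor markers averaged 9.82 to 12.77 per FL HSC sample, and the 9 annotated fibroblast markers 12.67 to 13.54 per MEF sample. *Cdkn1a* WT sample 3 stood apart: its 6 fetal hepatocyte markers averaged 13.75 and its 5 erythroid markers 8.43, against at most 7.96 and 3.66 in the other 6 samples of that experiment.

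**Figure D1:**
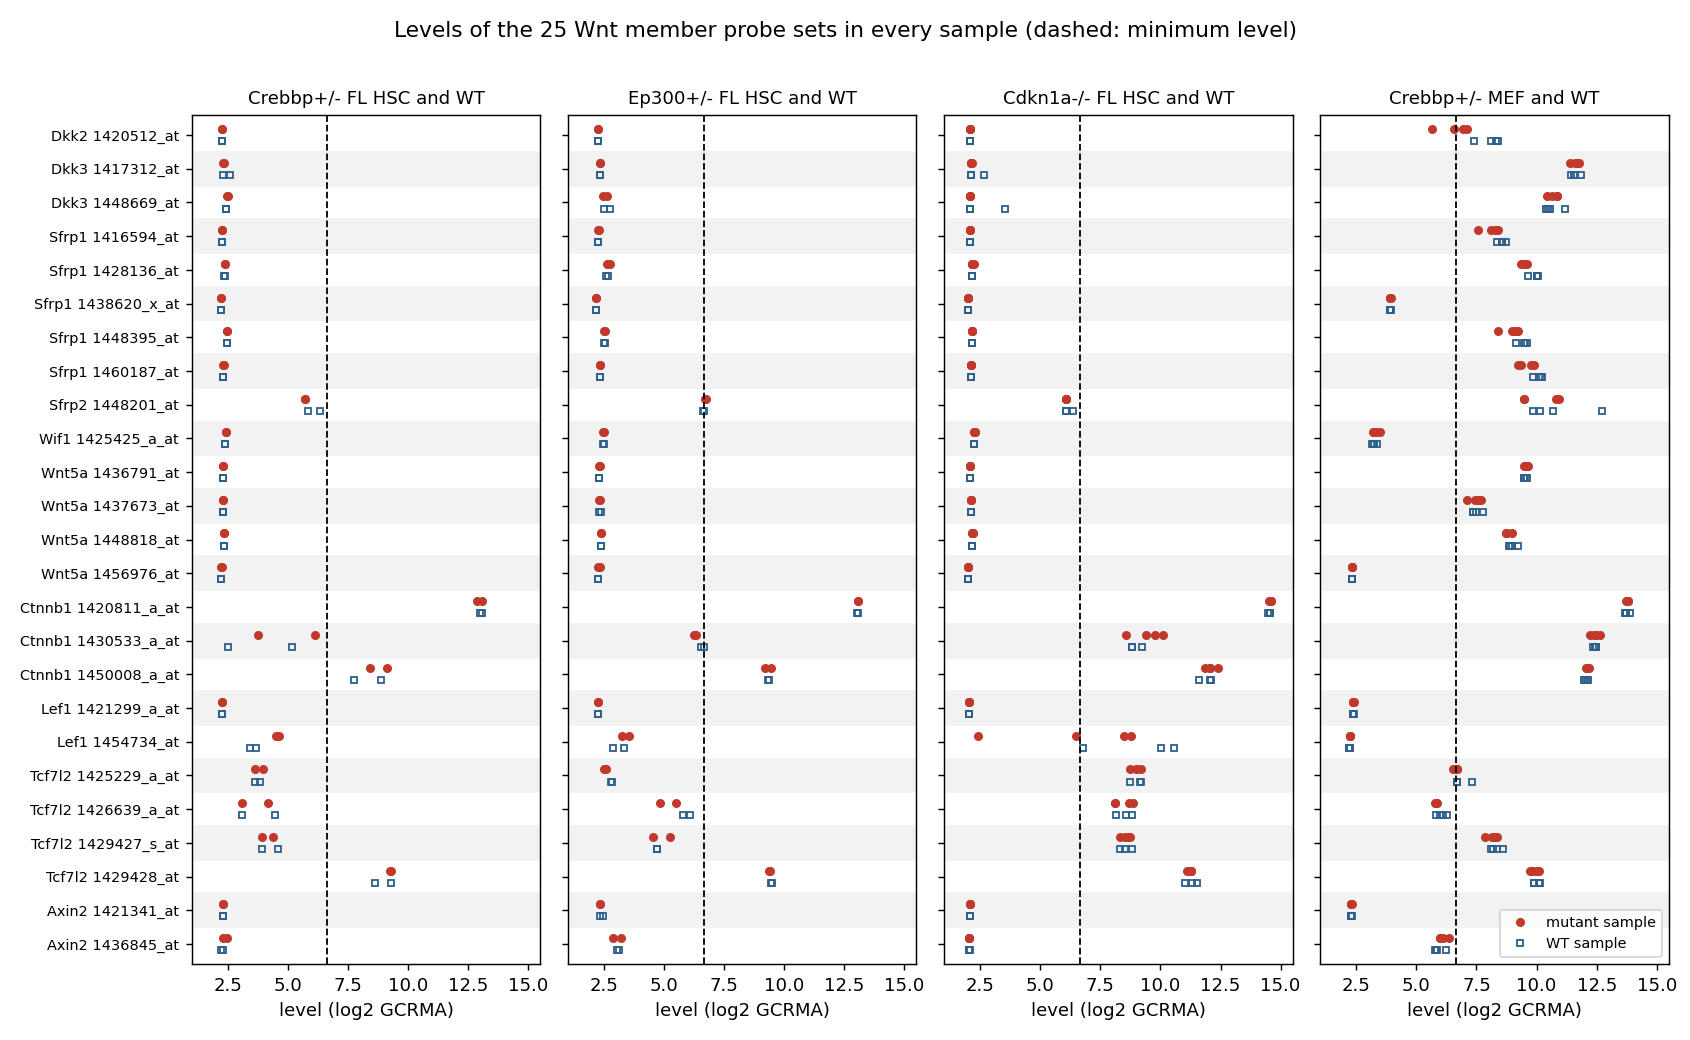
Level (log2 GCRMA, x axis) of each of the 25 member probe sets in every sample of the 4 experiments, mutant above WT; the dashed line is the minimum of 6.64. The antagonists and *Wnt5a* lie left of the line in FL HSCs, save *Sfrp2* in the *Ep300* experiment, and right of it in MEFs save *Wif1*, 1 probe set each of *Sfrp1* and *Wnt5a*, and *Dkk2* in the *Crebbp*+/- embryos of litters 2 and 4.

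The 2 cell types differed first in which members could be measured, as the plot of all member levels shows. Of the 25 probe sets, 17 of 7 genes reached the minimum in at least 1 MEF sample, whereas 3 of 2 genes did so in the *Crebbp* FL HSC experiment, 5 of 3 genes in the *Ep300* experiment and 8 of 3 genes in the *Cdkn1a* experiment. *Dkk2*, *Dkk3*, *Sfrp1* and *Wnt5a* were measured in MEFs and stayed below the minimum in all FL HSC samples. *Lef1* was measured only in the *Cdkn1a* FL HSC experiment, by 1 of its 2 probe sets, and stood at 2.22 to 2.41 in MEFs. *Ctnnb1* and *Tcf7l2* were measured in all 4 experiments. *Wif1* and *Axin2* were measured in none. Because the experiments were normalized separately, this is a comparison with each experiment's own minimum and not of levels. More of the whole array reached the minimum in the *Cdkn1a* experiment (18947 to 19522 probe sets) than in any other. The member counts and the *Lef1* reading were not adjusted for that.

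*Dkk2*, a Dickkopf that binds the LRP co-receptors, had 1 probe set (1420512_at). Its MEF levels were 6.94, 6.56, 7.12 and 5.65 in *Crebbp*+/- embryos of litters 1 to 4, against 8.38, 8.10, 8.31 and 7.39 in the WT embryos of the same litters. The genotypes did not overlap, and the *Crebbp*+/- embryo was the lower of its litter in 4 of 4. The *Crebbp*+/- levels of litters 2 and 4 lay under the minimum, whereas no WT level did. The differences within litters were -1.44, -1.54, -1.19 and -1.75, with a mean of -1.48. In such bulk cultures fewer cells of a type and less RNA per cell cannot be told apart. This is the contrast in which *Dkk2* was selected, and no test is given; by the looser rule defined below, 0.645% of 15502 probe sets were lower. The difference was between -1.39 and -1.58 when each litter was left out, which describes the litters that chose *Dkk2* and gives no support. Litter 4 had the lowest level of either genotype. The litter means spanned 1.20, and 0.39 without litter 4. In the FL HSC experiments *Dkk2* stood at 2.08 to 2.28 in every sample, far below the minimum.

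*Sfrp1*, a secreted Frizzled-related protein that binds Wnt ligands, was read by 5 probe sets, of which 4 were measured in MEFs. The 4 read the same gene and are not replicates. At 1428136_at the levels were 9.59, 9.47, 9.37 and 9.53 in *Crebbp*+/- MEFs, against 10.08, 9.66, 10.04 and 10.004 in WT, and the genotypes did not overlap. At 1460187_at they were 9.78, 9.36, 9.24 and 9.91 in *Crebbp*+/- MEFs, against 10.09, 9.85, 10.18 and 10.23 in WT, with overlap. The other pair, 1416594_at and 1448395_at, also overlapped. In each of the 4 probe sets the *Crebbp*+/- embryo was the lower of its litter in 4 of 4.

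The differences at *Sfrp1* were -0.46 (SE 0.096, adjusted p = 0.553) at 1428136_at, -0.52 (adjusted p = 0.604) at 1460187_at, -0.51 (adjusted p = 0.672) at 1448395_at and -0.48 (adjusted p = 0.714) at 1416594_at, by limma with a litter block and Benjamini-Hochberg adjustment over all 15502 probe sets. None reached the adjusted threshold of 0.05 or the fold threshold of 1.5, a log2 change of 0.58, although the unadjusted p-values ran from 0.00413 to 0.0362. Litter 3 carried the greatest gap, and without it the differences were -0.30 to -0.38. The fifth probe set, 1438620_x_at, stood at 3.91 to 3.96 in all 8 samples, below the minimum.

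**Figure D2:**
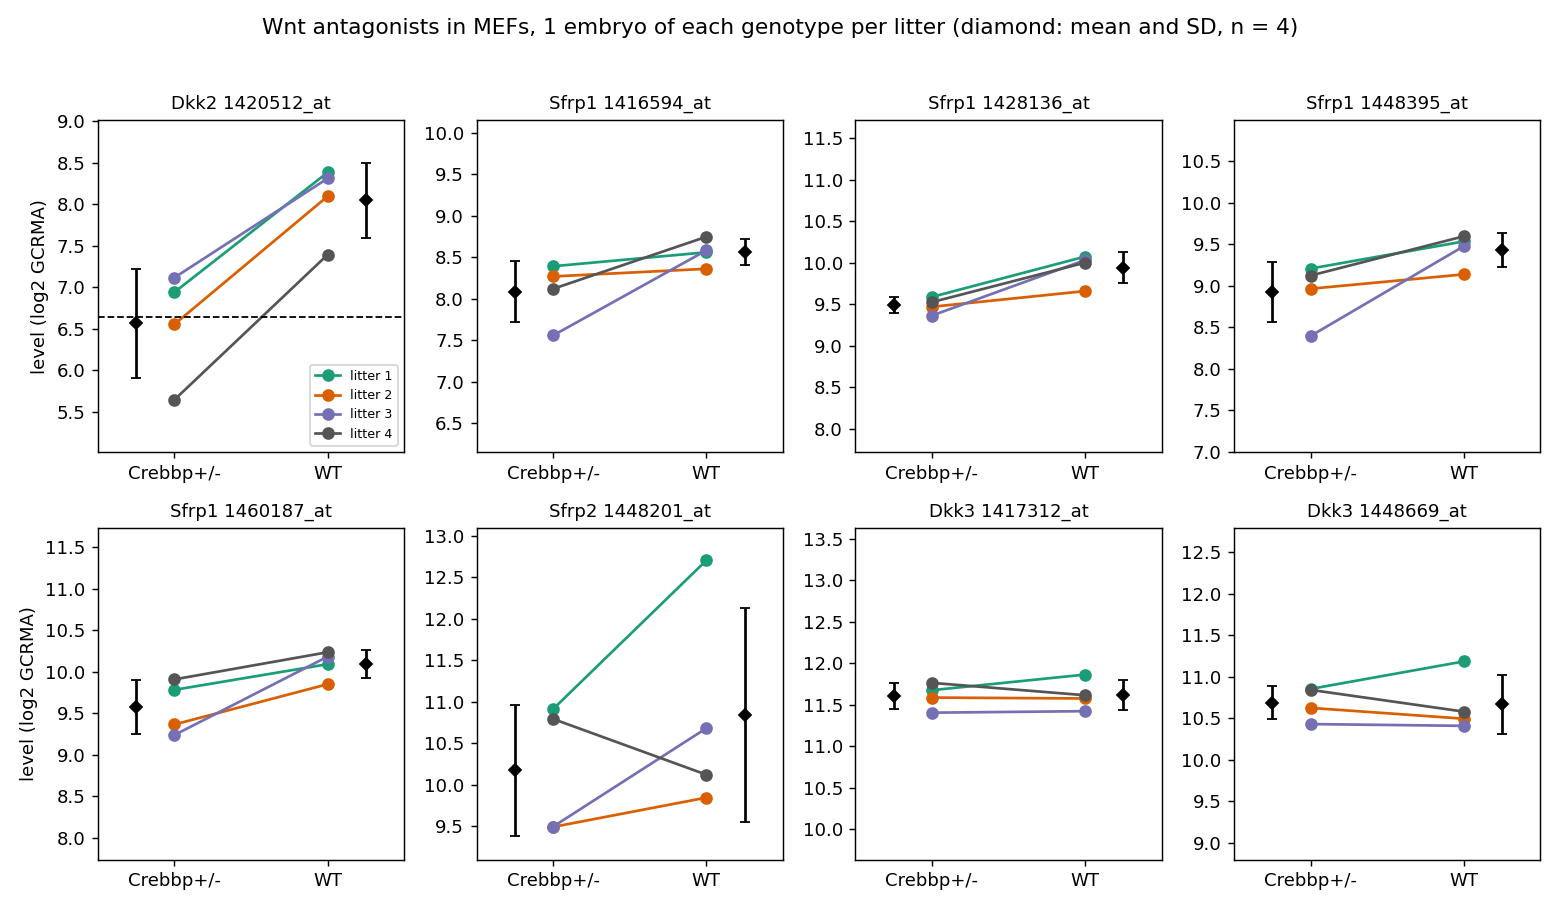
Levels (log2 GCRMA, y axis, the same span in each panel) of *Dkk2*, *Sfrp1*, *Sfrp2* and *Dkk3* probe sets in *Crebbp*+/- (left) and WT (right) MEFs, a line for each litter, with the mean and SD of 4 embryos as diamonds and the minimum dashed where it falls in range. All 4 lines climb to the WT side for *Dkk2* and *Sfrp1*, 3 of 4 for *Sfrp2*, and the *Dkk3* lines lie nearly flat.

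*Sfrp2*, the other Frizzled-related member, varied more between litters than between genotypes. Its levels were 10.92, 9.49, 9.50 and 10.79 in *Crebbp*+/- MEFs, against 12.70, 9.85, 10.68 and 10.12 in WT. The WT embryo of litter 1 was the highest of the 8, and litter 4 ran opposite to the other 3. The difference was -0.66 (SE 0.402, 95% interval -1.67 to 0.34, adjusted p = 0.763), or -1.11 without litter 4 and -0.29 without litter 1. *Dkk3*, a divergent Dickkopf, was measured at a high level by both of its probe sets. At 1417312_at it read 11.68, 11.59, 11.41 and 11.76 in *Crebbp*+/- MEFs, against 11.86, 11.58, 11.42 and 11.62 in WT. Its difference was -0.01 (95% interval -0.21 to 0.19), and 0.02 (-0.26 to 0.30) at 1448669_at. *Wif1*, which binds Wnt ligands outside the cell, stood at 3.16 to 3.51 in MEFs, below the minimum.

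*Wnt5a*, a ligand that signals mostly without beta-catenin, was measured by 3 of its 4 probe sets. At 1448818_at the levels were 8.98, 8.72, 8.74 and 8.76 in *Crebbp*+/- MEFs, against 9.23, 8.99, 8.84 and 8.91 in WT. The *Crebbp*+/- embryo was lower in 4 of 4 litters, the groups overlapped, and the difference of -0.19 (unadjusted p = 0.034, adjusted p = 0.714, limma) was not past the threshold. The other probe sets, 1436791_at and 1437673_at, differed by 0.04 (95% interval -0.15 to 0.23) and -0.03 (-0.26 to 0.19). The fourth, 1456976_at, stood at 2.31 to 2.33.

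The measured probe sets of the nuclear and scaffold members differed by at most 0.21 in size between the MEF genotypes. *Ctnnb1* at 1420811_a_at read 13.75, 13.81, 13.73 and 13.81 in *Crebbp*+/- MEFs, against 13.90, 13.67, 13.74 and 13.74 in WT. The difference was 0.01 (95% interval -0.18 to 0.20), and 0.01 and 0.08 at the other *Ctnnb1* probe sets. *Tcf7l2*, a TCF/LEF factor, was measured by 3 of its 4 probe sets, with differences of -0.21, -0.18 and -0.07 and adjusted p-values of 0.745 to 0.816. At 1429427_s_at and 1429428_at the *Crebbp*+/- embryo was the lower in 4 of 4 litters, by -0.18 (unadjusted p = 0.0542, limma) and -0.07, and the groups overlapped. Without litter 1 the first of these, at 1425229_a_at, was -0.08. *Axin2*, a scaffold of the degradation complex and itself a transcriptional target of beta-catenin, came nearest to the minimum at 1436845_at. Its levels there were 6.11, 5.97, 6.36 and 5.97 in *Crebbp*+/- MEFs, against 6.24, 5.79, 5.86 and 5.82 in WT, all under the minimum and overlapping.

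A probe set was called at an adjusted p under 0.05 with a fold over 1.5. A looser rule took an unadjusted p under 0.05 with the same fold. No member was called in MEFs, nor was any of the 15502 probe sets (0%, limma), of which 1029 had an unadjusted p under 0.05. By the looser rule 0 of the 16 measured member probe sets other than *Dkk2* passed, against 0.961% of all. Among the 16, 5 had an unadjusted p under 0.05, the 4 of *Sfrp1* and 1 of *Wnt5a*.

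Fibroblast markers also ran lower in *Crebbp*+/- MEFs, although none was called. The mean of the 9 annotated fibroblast markers was 12.67 to 13.09 in *Crebbp*+/- MEFs, against 13.06 to 13.54 in WT, and was lower in the *Crebbp*+/- embryo of 4 of 4 litters. All 9 had a negative difference, from -0.02 for the collagen gene *Col1a1* to -1.02 for *Dcn*, which encodes the matrix proteoglycan decorin. *Dcn* passed the looser rule (adjusted p = 0.505, limma). The smooth muscle list averaged 11.08 to 11.41 in *Crebbp*+/- MEFs, against 10.08 to 11.62 in WT. All 4 of its genes had a positive difference, with a median of 0.29. The cartilage list averaged 6.60 to 7.40 against 5.94 to 7.87. Of its 3 measured genes 2 were higher in *Crebbp*+/- MEFs, 1 of them past the looser rule, and 1 was lower. The part of these marker differences in the *Dkk2* and *Sfrp1* values was not tested. All 8 embryos measured the Y-linked *Eif2s3y* (9.18 to 9.69 in *Crebbp*+/-, 9.25 to 9.72 in WT) and read *Xist* below the minimum.

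Litters were compared with genotype as a covariate. No probe set was called for litter (0% of 15502, limma; 1321 had an unadjusted p under 0.05), and 4.81% passed the looser rule. Of the 16 measured member probe sets other than *Dkk2*, 2 passed the looser rule. They were *Sfrp2*, with litter means of 11.81, 9.67, 10.09 and 10.46 (unadjusted p = 0.0459, adjusted p = 0.562, limma), and *Dkk3* at 1448669_at, with 11.02, 10.56, 10.42 and 10.71 (unadjusted p = 0.0477). In both, litter 1 was the highest. Without litter 1 the span of the *Sfrp2* means was 0.79, against 2.14 with it, and that of *Dkk3* was 0.29, against 0.60. *Ctnnb1* at 1450008_a_at spanned 0.04 and *Wnt5a* at 1436791_at 0.06.

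As a description, the probe sets most like *Dkk2* over the 8 MEF samples were sought among all those tested. The highest Pearson r values belonged to *Cd248* (0.975), *Gstm1* (0.967), *Ebf3* (0.95) and *Ebf1* (0.947), with a probe set of more than 1 gene at 0.95. The differences of the 4 named genes between genotypes were -0.37, -0.44, -0.59 and -0.67, and that of the unnamed probe set was -0.07. The 8 samples hold the genotype contrast that chose *Dkk2* and share litters in pairs, so genes lower in *Crebbp*+/- MEFs were favoured. Among the members, r with *Dkk2* was highest for *Sfrp1* at 1428136_at (0.697) and *Tcf7l2* at 1429428_at (0.685). The other measured *Sfrp1* probe sets had a lower r, of 0.418 to 0.445, and the *Dkk3* probe sets had -0.16 and -0.07.

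**Figure D3:**
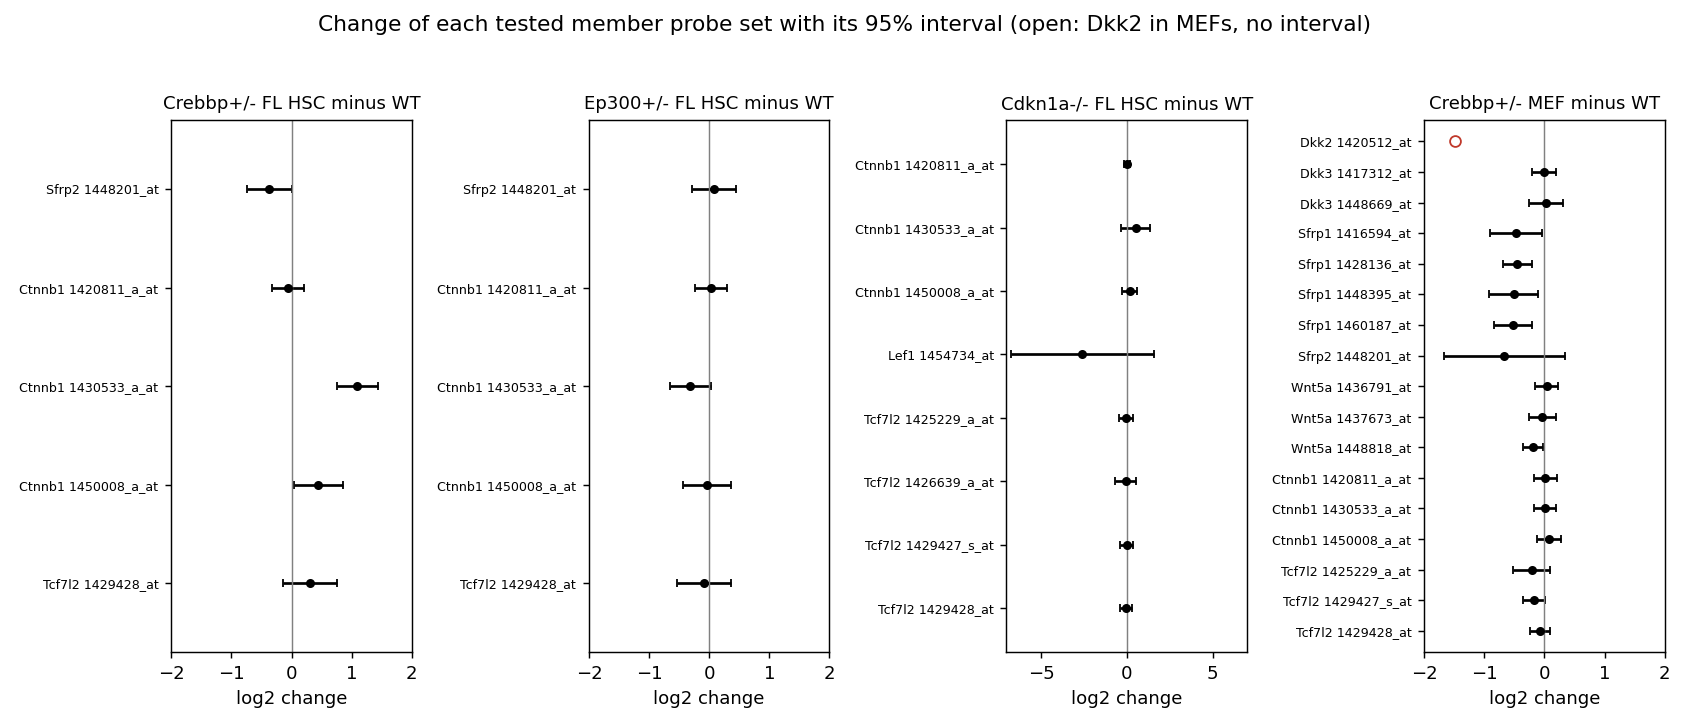
Change (log2, mutant minus WT, x axis) of each member probe set tested in the 4 experiments, with its 95% interval from limma; *Dkk2* in MEFs is an open point with no interval because it was selected on that difference. The *Cdkn1a* panel has a wider axis. Intervals of *Dkk3* and *Ctnnb1* in MEFs are narrow around 0, those of *Sfrp1* lie below 0, those of *Sfrp2* and of *Ctnnb1* at 1430533_a_at in the *Crebbp* FL HSC panel rest on levels under the minimum, and that of *Lef1* in *Cdkn1a*-/- FL HSCs spans -6.73 to 1.56.

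In FL HSCs lacking 1 copy of *Crebbp*, 5 member probe sets of 3 genes entered the fit, which took the *Crebbp* and *Ep300* samples together with a block for each pair of same-numbered samples. None was called, against 0.383% of 13332 probe sets. By the looser rule 1 of 5 passed, *Ctnnb1* at 1430533_a_at, against 10% of all. There the levels were 6.13 and 3.74 in *Crebbp*+/- samples 1 and 2, against 5.19 and 2.49 in WT. All 4 lay under the minimum, and the probe set entered the fit only through 1 *Ep300* WT sample (6.66). The samples numbered 1 were the higher pair in both genotypes, and the groups overlapped. The difference was 1.09, between levels too low to be read as measured. Its p-value is therefore not given, its drawn interval is not read, and the count of 1 is no result about *Ctnnb1*. Of the 3 member probe sets that reached the minimum in the *Crebbp* experiment's own samples, 0 passed.

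The other *Ctnnb1* probe sets were above the minimum in these cells. The first, 1420811_a_at, read 12.88 and 13.07 in *Crebbp*+/- samples, against 12.99 and 13.06 in WT, a difference of -0.05 (95% interval -0.32 to 0.21). Its technical arrays of 1 sample differed by 0.01 to 0.18. The second, 1450008_a_at, read 9.10 and 8.44 in *Crebbp*+/- samples, against 8.88 and 7.77 in WT, with a difference of 0.45 (adjusted p = 0.176) that was 0.22 without pair 2 and 0.67 without pair 1. *Tcf7l2* at 1429428_at read 9.29 and 9.24 in *Crebbp*+/- samples, against 9.28 and 8.61 in WT. Its difference of 0.31 (95% interval -0.14 to 0.76, adjusted p = 0.339) came from pair 2, and was 0.00 without it.

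*Sfrp2* lay under the minimum in the same samples, at 5.73 and 5.70 in *Crebbp*+/- and 6.32 and 5.85 in WT, without overlap. The difference was -0.37, and -0.13 or -0.61 when only 1 of the technical arrays of each sample was used. *Sfrp2* entered the fit only through the *Ep300* experiment, and no p-value is given for these levels. *Lef1*, a TCF/LEF factor of lymphoid precursors, was too low to be tested. At 1454734_at it read 4.63 and 4.52 in *Crebbp*+/- samples, against 3.41 and 3.69 in WT, without overlap and all under the minimum. With 2 samples a group, the lack of overlap at *Sfrp2* and *Lef1* is a description only. A list of 8 lymphoid genes added after values were seen, 5 of them under the minimum in every sample here, averaged 5.34 and 5.46 in *Crebbp*+/- samples, against 4.65 and 4.94 in WT; its part in the *Lef1* values was not tested. *Dkk2*, *Sfrp1*, *Wif1*, *Wnt5a* and *Axin2* stood between 2.23 and 2.47.

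In *Ep300*+/- FL HSCs the same 5 probe sets gave no call by either rule, against 0% called (limma, 570 with an unadjusted p under 0.05) and 0.78% by the looser rule among the 13332. *Sfrp2*, a Wnt-binding antagonist, sat at the minimum, with 6.74 and 6.70 in *Ep300*+/- samples, against 6.60 and 6.67 in WT. Its 2 technical arrays differed by 0.29 to 0.58 in the 3 samples that reached the minimum. *Ctnnb1* at 1420811_a_at read 13.09 and 13.08 in *Ep300*+/- samples, against 13.04 and 13.08 in WT, and the difference was 0.03 (95% interval -0.24 to 0.30). At 1430533_a_at *Ctnnb1* read 6.32 and 6.24 in *Ep300*+/- samples, against 6.53 and 6.66 in WT, with 1 of the 4 at the minimum, and the difference was -0.31. *Tcf7l2* differed by -0.09 (95% interval -0.54 to 0.36). *Lef1* at 1454734_at read 3.55 and 3.26 in *Ep300*+/- samples, against 3.33 and 2.90 in WT, under the minimum, and the lymphoid list averaged 4.37 and 4.81 in *Ep300*+/- samples, against 4.70 and 4.85 in WT. All 5 adjusted p-values were 1 by limma.

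*Cdkn1a*-/- FL HSCs had 8 measured member probe sets, 3 of *Ctnnb1*, 4 of *Tcf7l2* and 1 of *Lef1*. None passed either rule, against 0.405% called and 4.05% by the looser rule among 20962 probe sets. *Ctnnb1* at 1420811_a_at read 14.59, 14.51, 14.61 and 14.57 in *Cdkn1a*-/- samples, against 14.57, 14.58 and 14.48 in WT. The difference was 0.03 (95% interval -0.15 to 0.21). At 1430533_a_at it was 0.51 (-0.35 to 1.38), with levels of 10.11, 9.41, 8.58 and 9.79 in *Cdkn1a*-/- samples, against 9.24, 8.81 and 8.82 in WT. The 4 *Tcf7l2* probe sets differed by -0.07 to 0.00, with adjusted p-values of 0.919 to 0.999.

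*Lef1* varied most. At 1454734_at it read 8.49, 6.48, 8.76 and 2.42 in *Cdkn1a*-/- samples 1 to 4, against 10.01, 6.79 and 10.56 in WT samples 1 to 3. Null sample 4 was far below the minimum, null sample 2 and WT sample 2 lay near the minimum, and the groups overlapped. The difference was -2.58 (SE 1.73, 95% interval -6.73 to 1.56, adjusted p = 0.72, limma). It was -1.21 without null sample 4 and -1.86 without WT sample 3, the sample with hepatocyte and erythroid markers. The second *Lef1* probe set, 1421299_a_at, stood at 2.05 to 2.06. *Dkk3*, far under the minimum in this experiment, read 3.54 at 1448669_at in WT sample 3, against 2.07 to 2.09 in the other 6 samples.

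The same lymphoid genes were read in these pools, where 6 of the 8 were measured, 4 with a lower and 2 (*Il7r*, 0.27, and *Notch1*, 0.10) with a higher mean in *Cdkn1a*-/- samples, none past either rule. Their mean was 8.67, 8.06, 8.43 and 6.62 in *Cdkn1a*-/- samples 1 to 4, against 8.87, 7.66 and 8.89 in WT samples 1 to 3, so null sample 4 and WT sample 2 were the lowest of their groups. *Igll1*, a surrogate light chain gene of B cell precursors, read 9.46, 8.32, 9.38 and 4.05 in *Cdkn1a*-/- samples, against 10.85, 7.79 and 11.28 in WT. *Rag1*, a recombinase gene of lymphocyte precursors, read 9.86, 8.64, 8.91 and 6.71 in *Cdkn1a*-/- samples, against 10.04, 7.75 and 9.07 in WT. The list was chosen after its values had been seen, and its part in the *Lef1* difference was not tested.

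**Figure D4:**
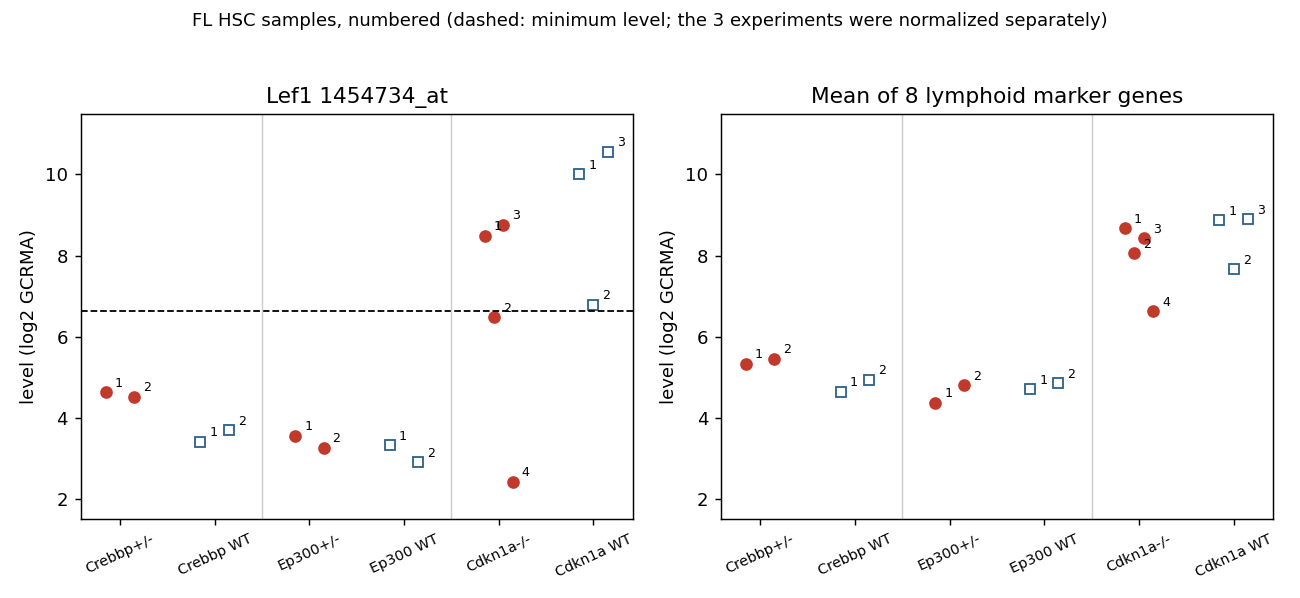
Level (log2 GCRMA, y axis) of *Lef1* at 1454734_at (left) and mean level of 8 lymphoid genes (right) in each FL HSC sample, mutant left of WT within each experiment, numbered by sample. Null sample 4 of the *Cdkn1a* experiment is lowest of its group in both panels, and only samples of that experiment cross the minimum for *Lef1*.

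The other Wnt genes were read as 6 lists of 98 genes, 93 of them annotated, each by its brightest probe set. In MEFs 50 were measured, 25 lower and 25 higher in *Crebbp*+/-, with a median of 0.01, against 0.02 over all probe sets tested. None was called, and 2 passed the looser rule, both higher, against 0.961% of all. The Frizzled receptor *Fzd6* read 8.53, 8.34, 8.97 and 8.68 in *Crebbp*+/- MEFs, against 7.998, 8.16, 7.91 and 8.07 in WT, without overlap. Its difference was 0.60 (SE 0.147, adjusted p = 0.615, limma), and 0.44 without litter 3. The ligand gene *Wnt10a* read 8.14, 5.89, 7.70 and 8.53 in *Crebbp*+/- MEFs, against 7.69, 5.26, 4.88 and 7.12 in WT, with overlap. Its difference was 1.33 (adjusted p = 0.664), and 0.83 without litter 3, whose WT embryo read lowest. It did not pass the looser rule with no level filter (unadjusted p = 0.0543), with no replicate block (0.123) or without litter 4 (0.0568), by limma, and 3 of its 8 levels were under the minimum. Next by p came *Ctnnbip1*, an inhibitor of beta-catenin, at -0.18 and the cyclin gene *Ccnd1* at -0.22 (adjusted p = 0.714 and 0.73).

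In *Crebbp*+/- FL HSCs 25 of the other genes were measured, 20 higher and 5 lower, with a median of 0.16, against 0.05 over all probe sets and a lower share of 42.3% among them. The looser rule took 2 of the 25, both higher, against 10% of all probe sets, so the count is no result about these genes, and none was called. *Fzd6* read 7.86 and 7.25 in *Crebbp*+/- samples, against 6.94 and 6.16 in WT, higher by 1.00 (SE 0.186, adjusted p = 0.0787, limma). *Axin1*, the scaffold of the degradation complex, read 7.47 and 8.04 in *Crebbp*+/- samples, against 6.46 and 7.28 in WT, higher by 0.89 (adjusted p = 0.081). In both genes the groups did not overlap, which with 2 samples a group is a description only. The fetal hepatocyte list averaged 5.39 and 5.76 in these *Crebbp*+/- samples, against 3.02 and 6.49 in WT, and its part in the Wnt genes was not tested. *Pygo2*, which binds the beta-catenin complex, and the Dishevelled gene *Dvl1* differed by 0.30 and -0.31.

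In *Ep300*+/- FL HSCs the same 25 genes split into 18 higher and 7 lower, with a median of 0.04, against a lower share of 54.9% and a median of -0.02 over all probe sets, and none passed the looser rule (0.78% of all). The smallest p-values belonged to *Dvl1* (0.35), *Axin1* (0.42), the Notch ligand gene *Jag1* (-0.41) and the IGF-binding protein gene *Igfbp4* (0.15), with adjusted p-values of 1.

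In *Cdkn1a*-/- FL HSCs 43 of the other genes were measured, 24 lower and 19 higher, against a lower share of 37.8% over all probe sets. None was called, against 0.405% of all, and 3 passed the looser rule, against 4.05%. *Fzd6* read 6.72, 6.17, 7.15 and 6.11 in *Cdkn1a*-/- samples, against 10.05, 8.53 and 8.80 in WT, without overlap. Its difference was -2.59 (SE 0.43, adjusted p = 0.0961, limma), and it passed the looser rule without any 1 sample as well. *Wls*, which carries Wnt ligands to the cell surface, read 12.12, 11.87, 11.76 and 11.70 in *Cdkn1a*-/- samples, against 11.16, 10.90 and 11.20 in WT, also without overlap (0.78, adjusted p = 0.116). *Bcl9l*, a beta-catenin cofactor gene, read 6.95, 6.61, 6.43 and 6.44 in *Cdkn1a*-/- samples, against 7.53, 6.95 and 7.68 in WT, at the minimum and with almost no gap (-0.78, adjusted p = 0.411). The casein kinase gene *Csnk1e* differed by 0.51 (adjusted p = 0.399).

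**Figure D5:**
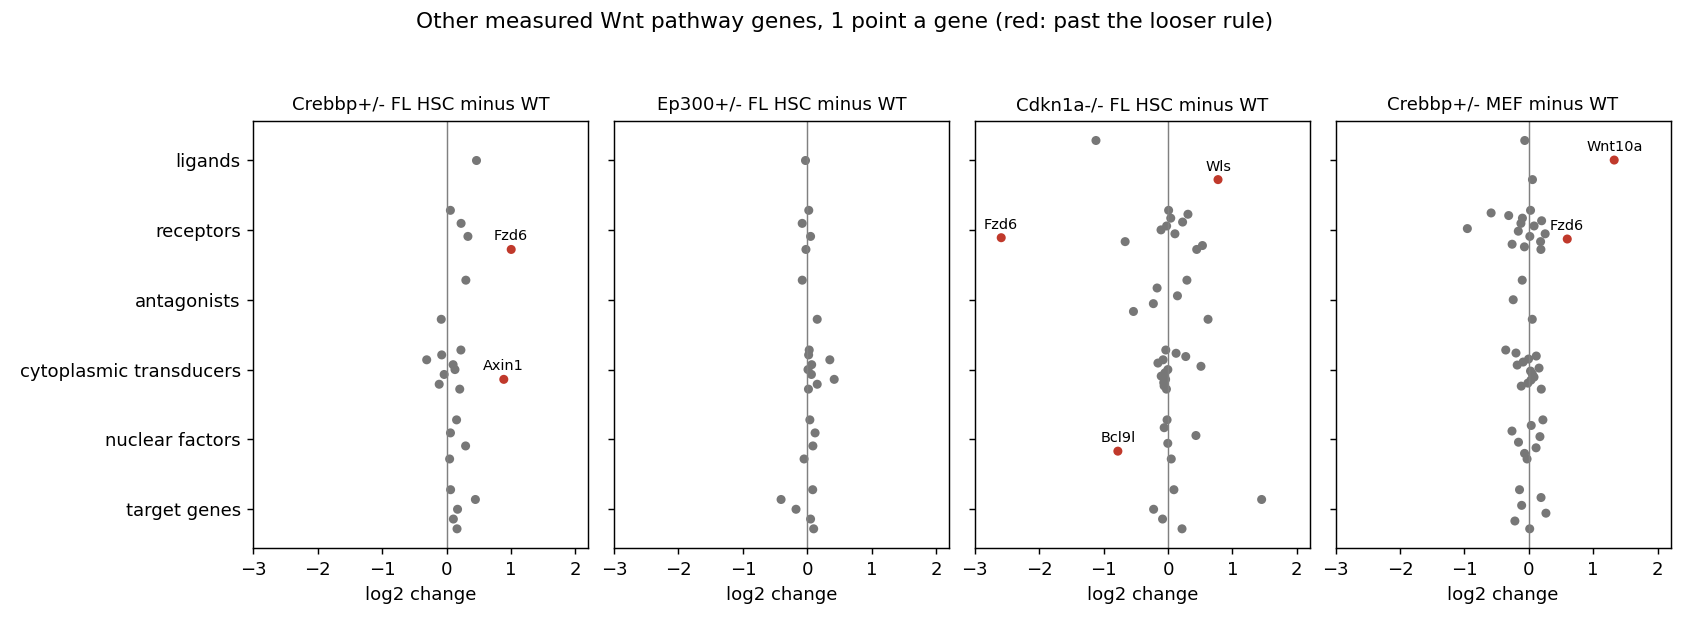
Change (log2, mutant minus WT, x axis) of each measured Wnt gene outside the 10 members, by list (y axis), 1 point a gene; red points passed the looser rule of an unadjusted p under 0.05 with a fold over 1.5. *Fzd6* is red in 3 of the 4 comparisons, at 1.00, -2.59 and 0.60, where the differences of 1.00 and -2.59 include levels under the minimum.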

How the data were processed

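Gene expression was measured on Affymetrix mouse genome arrays, 31 arrays of 23 samples. The deposited log2 values were made by the authors with GCRMA (version not given in the sources used here), which adjusts for background from the probe's sequence, then quantile-normalizes and sums up each probe set, in each experiment separately. FL HSC RNA (12 ng) was amplified; the labels say so of MEF RNA as well, whereas the methods say that it was used unamplified. Array number limits the precision. Genes came from GEO's platform annotation, in which 34945 of 45037 probe sets had 1 symbol, 932 several and 9160 none; 64 control probe sets were left out. Sequences and positions came from RefSeq GRCm38.p6.

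Technical arrays were averaged. A probe set was tested if any sample in its fit was at log2(100) or more. R 4.3.3 and limma 3.58.1 were used, fitting the *Crebbp* and *Ep300* FL HSCs together (a block for each same-numbered pair), *Cdkn1a* with no pairing and MEFs with litter as the block, with p-values adjusted by Benjamini-Hochberg over all probe sets. The blocks follow the paired test of the methods and, for MEFs, the litter in the labels. Same-numbered samples deviated together, at r = 0.712 (*Crebbp*) and 0.384 (*Ep300*) in FL HSCs and at 0.283, 0.461, 0.402 and 0.186 in MEF litters 1 to 4; in MEFs the highest r with another litter was -0.139, 0.576, 0.441 and 0.586, above the own-litter value in litters 2 to 4. P-values rest on the spread left after the pair or litter block, or within groups for *Cdkn1a*, which limma shrinks toward that of all probe sets. The *Crebbp* and *Ep300* FL HSC tests share 1 estimate of that spread. With 2 pools a group they rest on few degrees of freedom. Fits were tested on simulated data. Alternatives were the level filter, median centring, a trended robust fit, no block, single technical arrays, left-out samples and the methods' t-test. That t-test used the minimum level and interquartile range filters of the methods but not their filter on Absent calls. It was unpaired for *Cdkn1a*, whereas the methods state paired tests, so its counts are not those of the paper.

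Members, pathway lists and tests were chosen with earlier results of these data known. All members were named; of the other Wnt genes, those past a rule and the 4 with the smallest p in each comparison; and the 5 probe sets most like *Dkk2*. Marker genes were named where they moved with a member.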

Additional observations from a re-analysis of the deposited data

Results flagged for a closer look

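Samples far from the rest of their group were sought in groups of 4, by the gap to the nearest sample over the group's whole range; chance flags about 1 in 20 groups. The samples found were 3. The number of groups searched is not given here, so these 3 are a description and cannot be set against that rate. *Tcf7l2* at 1429428_at was lowest in *Cdkn1a*-/- sample 4, at 11.10, with the next at 11.26. *Tcf7l2* at 1425229_a_at was highest in the WT MEFs of litter 1, at 7.32, with the next at 6.69. *Wnt5a* at 1448818_at was highest in the *Crebbp*+/- MEFs of litter 1, at 8.98, with the next at 8.76.

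Differences that ran one way in every pair of 1 experiment and the opposite way in every pair of another were also listed. *Ctnnb1* at 1430533_a_at differed by 1.09 in *Crebbp*+/- and -0.31 in *Ep300*+/- FL HSCs, where 1 of the 8 samples reached the minimum, so the test of the difference between them was not read. *Tcf7l2* at 1429428_at differed by 0.31 in *Crebbp*+/- and -0.09 in *Ep300*+/- FL HSCs (0.40 between them, adjusted p = 0.488, limma), but within pair 1 of the *Crebbp* experiment the difference was 0.00, against 0.63 within pair 2. *Sfrp2* differed by -0.37 in *Crebbp*+/- and 0.08 in *Ep300*+/- FL HSCs, where the *Crebbp* samples all lay under the minimum, so the test of this difference was not read either. *Tcf7l2* at 1429428_at also differed by 0.31 in *Crebbp*+/- FL HSCs and -0.07 in *Crebbp*+/- MEFs, a difference that was not tested because those experiments were normalized separately.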

How the results depend on the processing

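Neither *Dkk2* nor any named gene past the looser rule changed sign under any alternative run. The alternatives reuse the samples in which these genes were picked, so this is a description and gives them no support. The count of called probe sets in *Crebbp*+/- FL HSCs was 51, and became 0 with no level filter, 267 with the stricter filter, 208 after median centring, 877 with a trended robust fit, 0 with no replicate block, with only its own samples or with either technical array alone, and 0 to 0 without a pair; the methods' t-test gave 199 unadjusted and 0 adjusted. In *Ep300*+/- FL HSCs only the unadjusted methods' t-test (11) departed from 0. In *Cdkn1a*-/- FL HSCs the count of 85 became 42 with no level filter and 38 to 87 without 1 sample (52 without WT sample 1; 43, 38, 51 and 38 without null samples 1 to 4), and the methods' t-test gave 548 unadjusted and 141 adjusted. In MEFs 0 became 2 with no replicate block (the unpaired fit), 0 to 2 without a litter (2 without litter 1), and 61 by the unadjusted methods' t-test. No alternative moved the litter count of 0. The cause of these shifts was not tested.

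The only member whose adjusted p crossed the threshold was *Ctnnb1* at 1430533_a_at in *Crebbp*+/- FL HSCs, after median centring. All its levels there lay under the minimum, so this crossing is no result about *Ctnnb1*. With the trended robust fit of limma, *Fzd6* and *Axin1* in *Crebbp*+/- FL HSCs crossed it (adjusted p = 0.0203 and 0.0265). So did *Fzd6* in *Cdkn1a*-/- FL HSCs (0.0492, limma). All of these differences include levels under the minimum. The minimum of 6.64 is the filter of the methods, and whether levels under it hold usable differences was not tested. Because such levels were not read as measured, most members were not compared in FL HSCs.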
